A study of Mus musculus with 9 samples.

Results

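The 37 genes described here belong to the DNA damage response: the tumour suppressor p53 with its controllers and targets, the kinases and adaptor proteins that signal damage, and enzymes of the main repair pathways. They were taken by gene symbol from a table of 56748 genes, and each symbol was found. The list was chosen with earlier results of these data known. By role, 3 encode p53 and its controllers, 10 are p53 target or stress genes, 5 encode damage-signalling kinases or mediators, 3 the MRE11-RAD50-NBN complex, 2 act in homologous recombination, 4 in end joining, 5 in base excision and single-strand break repair, 2 in nucleotide excision repair, 1 in mismatch repair and 2 in the Fanconi anaemia pathway.

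Damaged DNA activates the kinases ATM and ATR, which signal through CHEK2 and CHEK1 and stabilise p53 by releasing it from its ubiquitin ligase MDM2. p53 then raises the transcription of genes that arrest the cell cycle, buffer oxidative stress, start repair or trigger cell death. Hematopoietic stem cells (HSCs) divide rarely and depend on this system for their persistence, and the accumulation of DNA damage is a recognised feature of HSC aging.

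RNA-seq was performed on HSCs sorted by flow cytometry with SLAM markers from bone marrow of female mice on a C57BL/6 background. Young HSCs (yHSCs) came from mice of 6 to 10 weeks, and pre-aged HSCs (paHSCs) from mice of 14 to 16 months were divided by surface P-selectin, an adhesion receptor encoded by *Selp*, into Selp_low and Selp_high fractions. No transgene, deletion or treatment is named for any group. Each group had 3 libraries, made by amplifying cDNA from very little RNA, and whether a library held 1 mouse or several is not given in the sources used here.

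Depth ranged from 24866975 to 35375310 counts per library, and levels are given as CPM, counts scaled to the depth of the library, after TMM scaling, which sets libraries on a common scale. The level of *Selp* was 20.5 to 30.0 CPM in yHSCs, 29.3 to 109 CPM in Selp_low paHSCs and 264 to 652 CPM in Selp_high paHSCs, so that every Selp_high library was above the other 6. The libraries of the Selp_low fraction stood apart in content. The 10 most abundant genes took 44.8% of counts in Selp_low replicate 2 and 20.9% in replicate 3, against 3.90% to 12.5% elsewhere. The summed level of 12 HSC markers was 593 to 1189 CPM in Selp_low paHSCs, 2479 to 3428 CPM in Selp_high paHSCs and 1254 to 2688 CPM in yHSCs, and 11 of the 12 were lower in every Selp_low than in every Selp_high library. None of the 12 was at 0. The sum of 12 B-lineage markers reached 6294 and 8661 CPM in Selp_low replicates 1 and 2 (other libraries, 68.7 to 590.4 CPM), and that of 12 neutrophil markers reached 206382 CPM in Selp_low replicate 3 (other libraries, 617 to 63474 CPM). In bulk RNA, fewer cells of a type and less RNA per cell cannot be told apart, and the part of these differences in the results below was not tested except where a value is given.

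Of the DNA damage response genes, in fits of all libraries without a replicate block, *Gadd45g* alone was called, by DESeq2, by voom and by edgeR without a filter on low counts but not by edgeR with it, at a higher level in both paHSC fractions than in yHSCs. All 37 passed the filter on low counts in each comparison. Genes were called at an adjusted p of 0.05 or less and a fold change of at least 2. With edgeR's quasi-likelihood test, 0 of the 37 were called in any comparison. Over all genes tested, edgeR called 0% in Selp_high over Selp_low paHSCs, 0.165% in Selp_high paHSCs over yHSCs and 0% in Selp_low paHSCs over yHSCs. At an unadjusted p under 0.05 the same test gave 4, 3 and 5 of the 37 in these comparisons, where all genes gave 12.5%, 7.59% and 11.3%. DESeq2, the tool of the study, called 2.28%, 2.78% and 2.95% of all genes in the same order, and of the 37 it called 0, 1 and 1. The gene was *Gadd45g* in both comparisons with yHSCs, which share the yHSC libraries.

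Fold changes of the group were small. The median log2 fold change of the 37 was 0.17 in Selp_high over Selp_low paHSCs, -0.06 in Selp_high paHSCs over yHSCs and 0.01 in Selp_low paHSCs over yHSCs, beside -0.11, -0.03 and 0.08 for all genes tested. A change of less than 2-fold was found for 33 of the 37 in each comparison, against 71.6%, 78.3% and 79.9% of all genes. The median standard error (SE) of the 37 was 0.35, 0.35 and 0.36 on the log2 scale, and that of all genes 0.59, 0.55 and 0.58. Of the 37, 3 had no overlap of libraries between Selp_high and Selp_low paHSCs, 3 between Selp_high paHSCs and yHSCs and 5 between Selp_low paHSCs and yHSCs, where the background was 20.9%, 13.8% and 16.3% of genes. With a fold change of at least 2 as well, the count was 2 in each comparison, against a background of 11.4%, 7.73% and 7.73%. With 3 libraries against 3, an exact permutation test of a single gene cannot give a 2-sided p below 0.1.

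**Figure D1:**
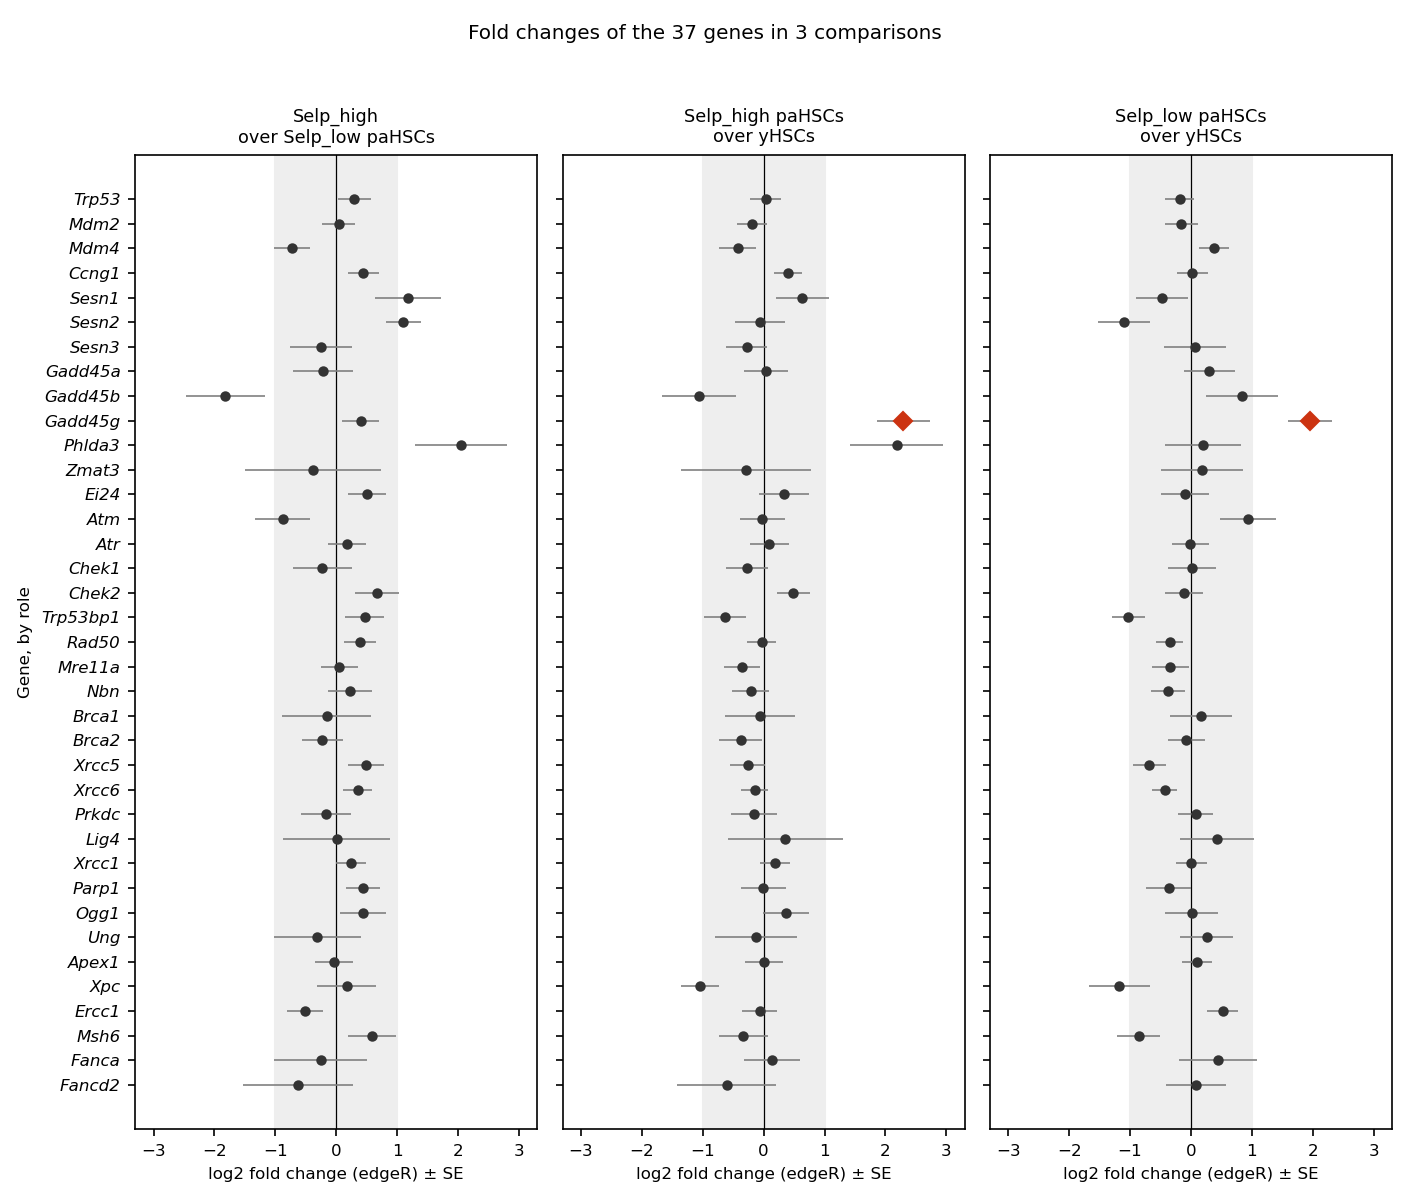
Log2 fold change (x axis, edgeR) of the 37 genes (y axis, ordered by role) in the 3 comparisons, with bars for the standard error, grey bands for changes under 2-fold and red diamonds for genes called by DESeq2. Most points lie within the grey band, and *Gadd45g* is the red diamond in both comparisons with yHSCs, at 2.29 and 1.95.

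Libraries of the same group often lay far apart. Selp_high replicate 1 held the lowest level of 10 of the 37 genes and the highest of 5, while Selp_high replicate 3 held the lowest of 0 and the highest of 6. Selp_low replicate 2 was at once the lowest library for 7 genes and the highest for 6. Genes with a count numbered 21755 in Selp_high replicate 1, 21094 in yHSC replicate 2 and 25192 in Selp_high replicate 3. The remaining libraries had 31236 to 34143 such genes, and the part of this in the levels was not tested. The least variable was *Atr*, the kinase that responds to stalled replication forks, whose highest library was 1.65 times its lowest, and the most variable was *Zmat3*, an RNA-binding p53 target, which ranged from 0.103 to 5.07 CPM on as few as 4 counts.

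**Figure D2:**
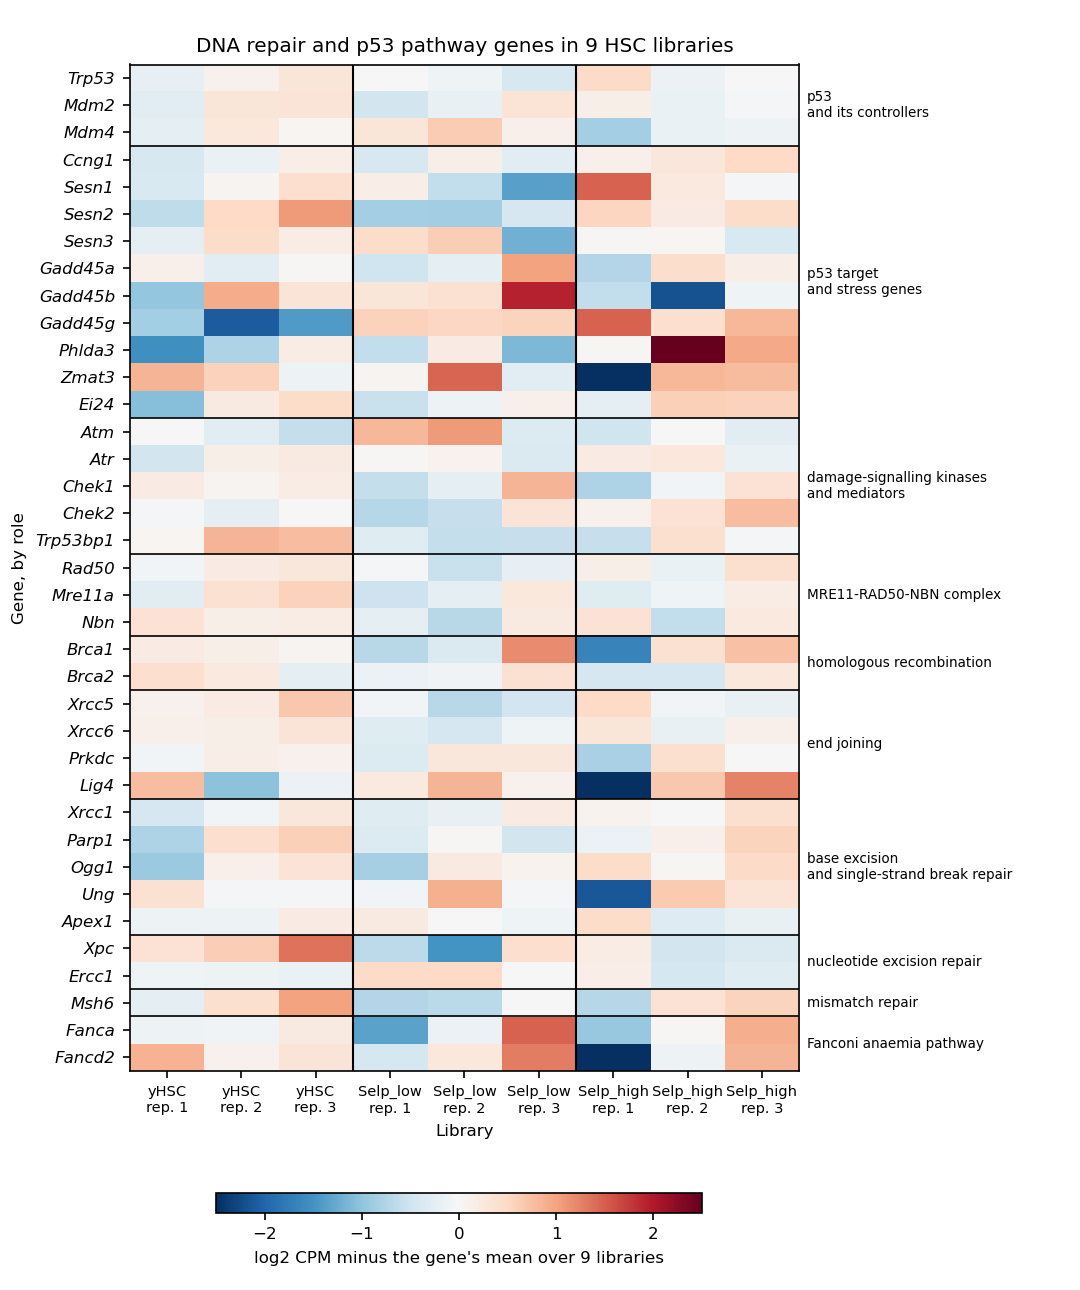
Level of each of the 37 genes (rows, by role) in each of the 9 libraries (columns), as log2 CPM minus the gene's mean over the libraries (blue, below the mean; red, above; the color scale ends at 2.5 in each direction). *Gadd45g* is blue in the yHSC libraries and red in the paHSC libraries, and Selp_high replicate 1 holds the deepest blue of *Zmat3*, *Lig4*, *Fancd2*, *Ung* and *Brca1*.

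The genes of p53 and its controllers had small estimates. *Trp53*, which encodes p53, was at 189, 234 and 268 CPM in yHSC replicates 1 to 3, at 216, 203 and 166 CPM in Selp_low paHSCs and at 303, 198 and 221 CPM in Selp_high paHSCs. The groups overlapped in each comparison. Per kilobase it was the most abundant of the 37 in yHSCs, with a mean of 57.0 CPM per kb. Its log2 fold change was 0.30 in Selp_high over Selp_low paHSCs (SE 0.27, adjusted p = 0.687), 0.04 in Selp_high paHSCs over yHSCs (SE 0.25, adjusted p = 0.999) and -0.19 in Selp_low paHSCs over yHSCs (SE 0.24, adjusted p = 0.902), all by edgeR. The p53 protein, at which most of the control is known to act, was not measured.

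*Mdm2*, the ubiquitin ligase that degrades p53 and is itself a p53 target, lay at 79.6, 118 and 120.4 CPM in yHSCs, 69.9, 84.3 and 121 CPM in Selp_low paHSCs and 105, 85.1 and 93.4 CPM in Selp_high paHSCs. The 3 ranges overlapped. Its log2 fold changes were 0.04 (SE 0.27, adjusted p = 0.967) between the paHSC fractions, -0.19 (SE 0.24, adjusted p = 0.992) in Selp_high paHSCs over yHSCs and -0.16 (SE 0.27, adjusted p = 0.945) in Selp_low paHSCs over yHSCs by edgeR. *Mdm4*, which restrains p53 by binding its activation domain, ranged from 24.3 to 67.8 CPM. All Selp_high libraries of *Mdm4* (24.3 to 40.0 CPM) lay below all Selp_low libraries (48.3 to 67.8 CPM), at a log2 fold change of -0.73 (SE 0.29, adjusted p = 0.385 by edgeR), short of 2-fold.

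The GADD45 proteins are small stress-induced partners of the p38 and JNK pathway kinase MEKK4 and of CDK1 and PCNA. All 3 genes of the family were measured. *Gadd45g* (ENSMUSG00000021453) lies at chr13:52000714-52002504 on the plus strand of mm39, the build of the deposited file per the submitters' processing notes, *Gadd45b* at chr10:80765907-80768038 on the plus strand and *Gadd45a* at chr6:67012080-67014441 on the minus strand. The 250 bases before each start site, from RefSeq on GRCm38.p6, are shown because this family holds the gene that DESeq2 called and one without overlap between the paHSC fractions. They come from chr6:67037408-67037657 on the minus strand, chr10:80929841-80930090 on the plus strand and chr13:51846425-51846674 on the plus strand, and capitals mark matches to the motifs searched.
Gadd45a: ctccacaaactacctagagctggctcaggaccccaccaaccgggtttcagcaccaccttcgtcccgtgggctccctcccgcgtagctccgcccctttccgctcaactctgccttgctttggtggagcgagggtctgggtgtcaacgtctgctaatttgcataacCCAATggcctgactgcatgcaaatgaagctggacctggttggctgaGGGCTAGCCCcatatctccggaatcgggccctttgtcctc
Gadd45b: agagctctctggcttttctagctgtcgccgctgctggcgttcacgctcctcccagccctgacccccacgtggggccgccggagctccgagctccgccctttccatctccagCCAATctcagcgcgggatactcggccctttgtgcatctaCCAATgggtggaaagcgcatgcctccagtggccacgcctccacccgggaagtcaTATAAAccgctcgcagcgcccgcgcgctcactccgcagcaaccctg
Gadd45g: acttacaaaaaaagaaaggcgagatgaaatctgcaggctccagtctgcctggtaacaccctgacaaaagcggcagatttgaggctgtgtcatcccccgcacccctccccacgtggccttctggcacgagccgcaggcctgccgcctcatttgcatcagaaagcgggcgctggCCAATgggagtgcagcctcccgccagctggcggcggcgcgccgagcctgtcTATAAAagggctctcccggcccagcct
Both strands were searched for 6 motifs: AP-1 (TGANTCA), the cyclic AMP response element (TGACGTCA), the TATA box (TATAAA), the CCAAT box (CCAAT), an E2F site (TTTNNCGC) and the p53 consensus decamer, and no pair of matches overlapped in these 3 windows. *Gadd45b* and *Gadd45g* both held TATAAA, from base -46 to -41 and from -27 to -22 relative to the start, a motif found in 12.4% of the 32851 promoter windows of that length. *Gadd45a* held a match to the p53 decamer from -40 to -31, as did 7.13% of all windows. CCAAT was present in all 3 genes and in 33.8% of windows. Of the 37 genes 31 had a promoter entry, and the p53 decamer was found in 7 of them (*Trp53*, *Mdm2*, *Ccng1*, *Sesn1*, *Gadd45a*, *Ei24* and *Fanca*). Such matches describe the letters of the window and say nothing about binding.

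*Gadd45g* was higher in both paHSC fractions than in yHSCs. Its level was 20.6, 8.85 and 14.03 CPM in yHSC replicates 1 to 3, 55.6, 53.8 and 55.2 CPM in Selp_low paHSCs and 103, 49.2 and 66.5 CPM in Selp_high paHSCs. The lowest paHSC library was thus above the highest yHSC library, while the fractions overlapped. On the log2 scale, the fold change over yHSCs was 2.29 in Selp_high paHSCs (SE 0.43, adjusted p = 0.143 by edgeR) and 1.95 in Selp_low paHSCs (SE 0.36, adjusted p = 0.332 by edgeR), and between the fractions it was 0.40 (SE 0.31, adjusted p = 0.626 by edgeR). DESeq2 called it in Selp_high paHSCs over yHSCs (adjusted p = 0.000306) and in Selp_low paHSCs over yHSCs (adjusted p = 0.00899), and voom with quality weights did so too (adjusted p = 0.0106 and 0.0392), where voom called 1.37% and 2.11% of all genes tested. Without a filter on low counts edgeR called 1.14% and 0.836% of all genes. Over the 21 alternatives run, the adjusted p ranged from 3.14e-11 to 0.733 in the first comparison, with 10 past both thresholds, and from 1.19e-06 to 0.981 in the second, with 7 past them. With DESeq2 and 1 library left out, the call in Selp_high paHSCs held in each of the 6 fits, but the call in Selp_low paHSCs was lost without yHSC replicate 2 (adjusted p = 0.0585), yHSC replicate 3 (adjusted p = 0.206) or Selp_low replicate 2 (adjusted p = 0.0748).

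These values can be set beside the marker sums. *Gadd45g* lay within 53.8 to 55.6 CPM in the Selp_low libraries, whose neutrophil sums ran from 617 to 206382 CPM and whose B-lineage sums ran from 68.7 to 8661 CPM, and it was above all yHSC values in the Selp_high libraries, whose HSC sums were 2479 to 3428 CPM. The sum of 12 T and NK cell markers followed the order of *Gadd45g* between yHSCs and paHSCs, at 99.1 to 129 CPM in yHSCs, 404 to 1013 CPM in Selp_low paHSCs and 151 to 176 CPM in Selp_high paHSCs. Of these 12 markers, 1 was above every yHSC library in all Selp_low libraries and 1 in all Selp_high libraries, 2 were below every yHSC library in all Selp_high libraries, and none was at 0 throughout a group. In both fractions the marker above was *Klrb1c*, and the higher sum in Selp_high paHSCs rested on this gene. Its level was 2.91 to 3.94 CPM in yHSCs, 9.48 to 25.7 CPM in Selp_low paHSCs and 39.2 to 102 CPM in Selp_high paHSCs. The sum of 11 measured megakaryocyte and platelet markers was 237 to 441 CPM in yHSCs, 272 to 2482 CPM in Selp_low paHSCs and 1477 to 8974 CPM in Selp_high paHSCs. In Selp_high paHSCs 10 of the 11 were above every yHSC library, in Selp_low paHSCs 4 were, and 1 was at 0 in all yHSC libraries. The last, *Gp1bb*, is in both counts but was as low as 0.0258 CPM in Selp_high and 0.0328 CPM in Selp_low paHSCs. In yHSCs a count of 0 was taken to allow 0.0695 to 0.102 CPM, so *Gp1bb* was not clearly above. The part of the neutrophil, B-lineage, HSC, T and NK cell and megakaryocyte differences in the *Gadd45g* result was not tested.

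*Gadd45b* was lower in Selp_high than in Selp_low paHSCs. It was at 24.1, 89.3 and 58.4 CPM in yHSCs, 58.0, 61.2 and 179 CPM in Selp_low paHSCs and 30.5, 10.4 and 43.7 CPM in Selp_high paHSCs. All Selp_high libraries were below all Selp_low libraries, and the yHSC libraries overlapped both fractions. The log2 fold change in Selp_high over Selp_low paHSCs was -1.82 (SE 0.65, adjusted p = 0.354 by edgeR), with an adjusted p of 0.142 by DESeq2 and a range of 0.000102 to 0.882 over the alternatives. Selp_low replicate 3, the library with the highest *Gadd45b*, was also the one with the highest neutrophil sum. Without it the edgeR estimate in Selp_high over Selp_low paHSCs was -1.09. *Gadd45a*, the classical p53 target of the family, ranged from 13.5 to 45.1 CPM with its highest value in the same library, and its groups overlapped throughout.

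Within a library, the share of each gene in the summed per-kilobase level of the family does not depend on the scaling between libraries. *Gadd45g* made up 37.8%, 10.2% and 19.4% of the family in yHSC replicates 1 to 3, 51.0%, 48.2% and 25.4% in Selp_low paHSCs and 76.6%, 63.9% and 57.6% in Selp_high paHSCs. The Selp_high libraries were above the other 6, and the yHSC and Selp_low libraries overlapped. *Gadd45b* took 32.6% to 75.7% of the family in yHSCs, 39.3% to 60.7% in Selp_low paHSCs and 9.99% to 28.0% in Selp_high paHSCs.

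**Figure D3:**
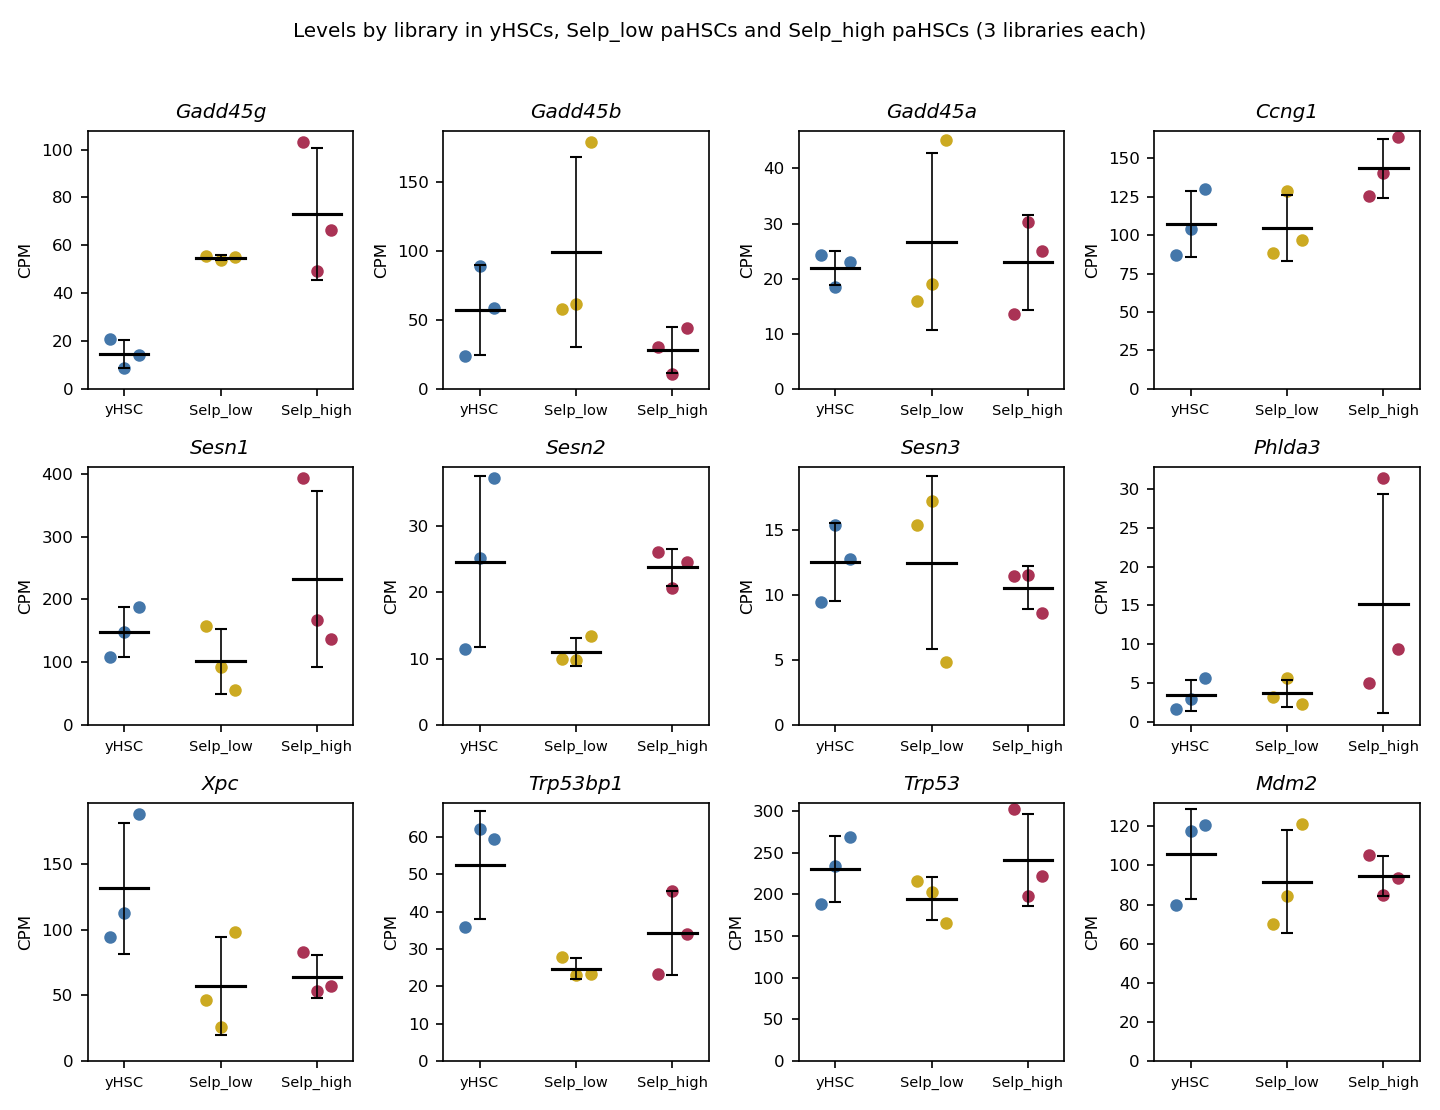
Level in CPM (y axis, from 0 or just below it) of 12 of the genes in each library (points), with the group mean (wide line) and standard deviation (whiskers, n = 3), for yHSCs, Selp_low paHSCs and Selp_high paHSCs (x axis). *Gadd45g* separates yHSCs from both paHSC fractions, *Sesn2* and *Gadd45b* separate the fractions, and *Trp53* and *Mdm2* overlap in all groups.

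The sestrins, stress proteins that hold back mTORC1 signalling, are given by gene. *Sesn2* was at 11.5, 25.1 and 37.2 CPM in yHSCs, 9.86, 9.75 and 13.4 CPM in Selp_low paHSCs and 26.0, 20.6 and 24.6 CPM in Selp_high paHSCs. Every Selp_high library was above every Selp_low library, at a log2 fold change of 1.10 (SE 0.29, adjusted p = 0.338 by edgeR and 0.164 by DESeq2, range over alternatives 0.0138 to 0.882). DESeq2 called it between the fractions without Selp_low replicate 3 (adjusted p = 0.0478), in a fit that called 1255 of 23704 genes. In Selp_low paHSCs over yHSCs the log2 fold change was -1.10 (SE 0.43, adjusted p = 0.403 by edgeR). DESeq2 called *Sesn2* there without yHSC replicate 1 (adjusted p = 0.0144), in a fit that called 2510 of 27862 genes. The 4 libraries with the lowest *Sesn2* were the 4 with the lowest HSC marker sum, namely the Selp_low libraries and yHSC replicate 1, and the part of the marker difference in this result was not tested.

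*Sesn1*, a sestrin gene that p53 controls directly, was at 108, 149 and 188 CPM in yHSCs, 157, 92.6 and 55.2 CPM in Selp_low paHSCs and 394, 168 and 136 CPM in Selp_high paHSCs. The fractions overlapped, and the 394 CPM of Selp_high replicate 1 set the mean of its group. On the log2 scale, the fold change in Selp_high over Selp_low paHSCs was 1.18 (SE 0.54, adjusted p = 0.432 by edgeR), and it was 0.57 without that library. *Sesn3*, which responds to FOXO factors, ranged from 4.87 to 17.2 CPM with overlap in all comparisons.

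*Phlda3*, a p53 target whose product blocks AKT at the membrane, was at 1.69, 2.87 and 5.58 CPM in yHSCs, 3.18, 5.60 and 2.25 CPM in Selp_low paHSCs and 4.96, 31.4 and 9.39 CPM in Selp_high paHSCs. Selp_high replicate 1 overlapped both other groups. The log2 fold change in Selp_high paHSCs was 2.05 over Selp_low paHSCs (SE 0.76, adjusted p = 0.360) and 2.18 over yHSCs (SE 0.77, adjusted p = 0.512) by edgeR. DESeq2 called both without Selp_high replicate 1 (adjusted p = 0.0476 and 0.0114), in fits that called 374 of 25045 and 669 of 23137 genes. Without Selp_high replicate 2, the highest library of *Phlda3*, the edgeR estimates were 0.96 and 1.06. That library also had the highest megakaryocyte marker sum of the 9, at 8974 CPM, and the part of this in the value was not tested.

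*Ccng1*, which encodes cyclin G1 and is a long-known p53 target, was at 87.4, 104 and 130 CPM in yHSCs, 88.3, 129 and 97.0 CPM in Selp_low paHSCs and 126, 141 and 164 CPM in Selp_high paHSCs. The Selp_high libraries were at the upper end, with overlap in both comparisons. On the log2 scale, the fold change of *Ccng1* was 0.45 over Selp_low paHSCs (SE 0.25, adjusted p = 0.519), 0.40 over yHSCs (SE 0.23, adjusted p = 0.836) and 0.02 in Selp_low paHSCs over yHSCs (SE 0.26, adjusted p = 0.999) by edgeR. *Ei24*, a membrane protein gene induced by p53, ranged from 24.9 to 78.0 CPM.

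The replicate numbers of the paHSC fractions behaved as pairs. Deviations from the group mean correlated between Selp_low and Selp_high libraries of the same number at 0.350, 0.381 and 0.405. Those of unequal number correlated at -0.352 to -0.0279, values that the use of deviations from a group mean pushes down. In both fractions replicate 2 had the lowest and replicate 3 the highest neutrophil sum. The part of this in the correlations was not tested. With the number as a block, edgeR called 0 of the 37 genes between the fractions (adjusted p from 0.102 for *Sesn1*, 0.108 for *Gadd45b*, 0.128 for *Sesn2* and 0.163 for *Phlda3* upwards). DESeq2 with the block, a fit added after the data were seen, called these 4 in Selp_high over Selp_low paHSCs, with log2 fold changes of 1.15 (*Sesn1*, adjusted p = 0.000976), -1.85 (*Gadd45b*, adjusted p = 0.000102), 1.11 (*Sesn2*, adjusted p = 0.0138) and 1.73 (*Phlda3*, adjusted p = 0.00648). That is 4 of the 37, where the same fit called 2151 of 22765 genes, or 9.45%.

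Among the kinases and mediators, *Trp53bp1*, whose product binds chromatin at double-strand breaks and steers them to end joining, was at 36.0, 62.1 and 59.4 CPM in yHSCs, 28.0, 22.9 and 23.3 CPM in Selp_low paHSCs and 23.3, 45.6 and 33.9 CPM in Selp_high paHSCs. Every Selp_low library was below every yHSC library, at a log2 fold change of -1.03 (SE 0.27, adjusted p = 0.332 by edgeR and 0.143 by DESeq2, range over alternatives 0.0159 to 0.981). DESeq2 called it without yHSC replicate 1 (adjusted p = 0.0159), in a fit that called 2510 of 27862 genes. *Chek2*, the kinase that relays the ATM signal, was above all yHSC libraries (31.4 to 37.4 CPM) in all Selp_high libraries (39.7 to 63.1 CPM), but by a log2 fold change of 0.49 (SE 0.26, adjusted p = 0.813 by edgeR). *Atm* ranged from 5.496 to 17.4 CPM with its 2 highest values in Selp_low replicates 1 and 2, the libraries with the highest B-lineage sums. *Atr* ranged from 9.95 to 16.4 CPM and *Chek1*, the kinase downstream of ATR, from 11.5 to 35.4 CPM. In the complex that senses double-strand breaks, *Rad50* ranged from 42.7 to 83.2 CPM, *Mre11a* from 20.3 to 43.3 CPM and *Nbn* from 32.5 to 67.3 CPM, all 3 with overlap in each comparison.

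In nucleotide excision repair, *Xpc*, which recognises the distorted helix, was at 94.2, 112 and 188 CPM in yHSCs, 46.3, 25.9 and 98.3 CPM in Selp_low paHSCs and 82.8, 53.4 and 56.8 CPM in Selp_high paHSCs. All Selp_high libraries were below all yHSC libraries, and Selp_low replicate 3 alone reached the yHSC range. The log2 fold change over yHSCs was -1.04 in Selp_high paHSCs (SE 0.31, adjusted p = 0.393 by edgeR and 0.0976 by DESeq2, range over alternatives 0.0204 to 0.99987) and -1.17 in Selp_low paHSCs (SE 0.50, adjusted p = 0.444 by edgeR and 0.367 by DESeq2, range 0.00144 to 0.99996). DESeq2 called the first without Selp_high replicate 1 (adjusted p = 0.0204) and the second without Selp_low replicate 3 (adjusted p = 0.00144). Those fits called 669 of 23137 and 1556 of 17373 genes. *Ercc1*, a subunit of a nuclease that cuts beside the lesion, ranged from 20.5 to 39.1 CPM. It was above the yHSC libraries in each Selp_low library, by a log2 fold change of 0.52 (SE 0.25, adjusted p = 0.504 by edgeR).

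The end-joining genes of the Ku proteins, which cap broken ends, were lower in each Selp_low than in each yHSC library without reaching 2-fold. *Xrcc5* was at 26.9 to 41.8 CPM in Selp_low paHSCs and 47.1 to 69.6 CPM in yHSCs, a log2 fold change of -0.69 (SE 0.27, adjusted p = 0.412 by edgeR). *Xrcc6* was at 90.7 to 112 CPM and 132 to 152 CPM, a log2 fold change of -0.43 (SE 0.20, adjusted p = 0.483 by edgeR). Their partner kinase gene *Prkdc* ranged from 6.69 to 15.4 CPM and the ligase gene *Lig4* from 0.465 to 7.33 CPM.

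The base excision genes had overlapping groups in every comparison. *Parp1*, the sensor of single-strand breaks, ranged from 98.6 to 254 CPM, the scaffold gene *Xrcc1* from 45.2 to 79.3 CPM, the endonuclease gene *Apex1* from 17.4 to 29.9 CPM, and the glycosylase genes *Ogg1* and *Ung* from 6.84 to 18.2 CPM and from 1.19 to 9.55 CPM. *Msh6*, a mismatch recognition gene, ranged from 42.0 to 141 CPM. Its log2 fold change in Selp_low paHSCs over yHSCs was -0.86 (SE 0.35, adjusted p = 0.429 by edgeR). In homologous recombination, *Brca2*, a mediator of strand repair from the sister chromatid, ranged from 13.5 to 24.3 CPM.

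*Brca1*, *Chek1*, *Fanca* and *Fancd2*, genes that dividing cells raise around S phase, varied widely between libraries of 1 group. *Brca1* was at 10.9, 10.5 and 9.95 CPM in yHSCs, 5.87, 7.38 and 21.3 CPM in Selp_low paHSCs and 2.97, 12.2 and 15.8 CPM in Selp_high paHSCs. *Fancd2*, whose product is ubiquitinated at stalled forks, was at 15.03, 8.78 and 10.2 CPM, 6.03, 9.82 and 19.9 CPM, and 0.956, 7.54 and 14.7 CPM in the same order. All 4 were highest in Selp_low replicate 3, and 3 were lowest in Selp_high replicate 1, with *Fanca* (5.83 to 40.8 CPM) lowest in Selp_low replicate 1. The summed level of 18 S-phase and mitosis genes was 4052, 2800 and 3193 CPM in yHSCs, 1992, 2039 and 6613 CPM in Selp_low paHSCs and 1903, 2678 and 4907 CPM in Selp_high paHSCs, so its highest and lowest libraries were the same. None of the 4 genes was called in any comparison, and the part of proliferation in their levels was not tested.

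**Figure D4:**
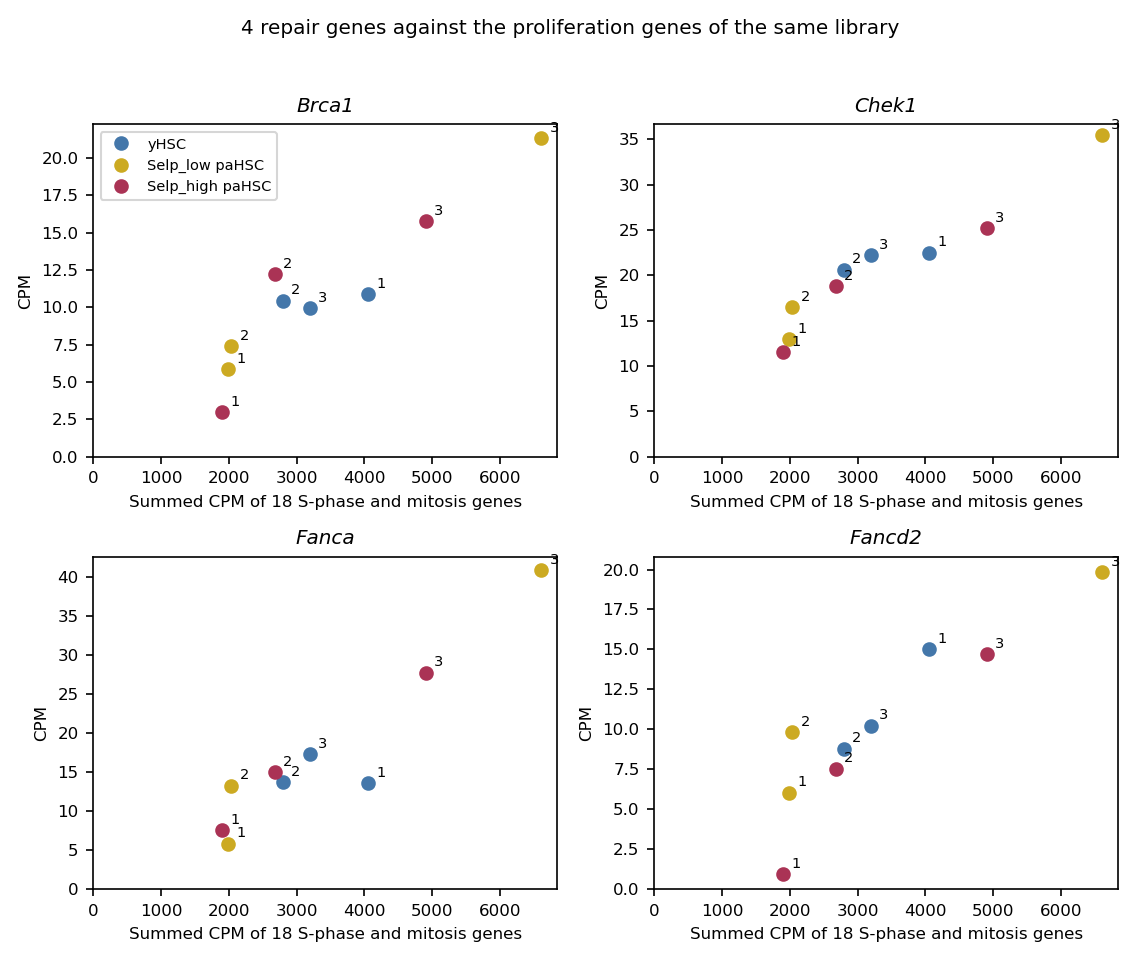
Level in CPM (y axis) of *Brca1*, *Chek1*, *Fanca* and *Fancd2* against the summed CPM of 18 S-phase and mitosis genes (x axis) in the 9 libraries, colored by group and numbered by replicate. Selp_low replicate 3 is at the upper right of each panel and Selp_high replicate 1 has the lowest x value.

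Other genes of these pathways were taken from lists chosen by function. Over 26 other p53 targets, 25 were tested and edgeR called 0 in each comparison. Among 104 other genes of repair and checkpoint signalling edgeR called 0 as well. DESeq2 called 1 of the other p53 targets and 1 of the other checkpoint genes, both in Selp_high paHSCs over yHSCs and both lower, and none of the other homologous recombination, end joining, base excision, nucleotide excision, mismatch repair or Fanconi anaemia genes in any comparison. The median log2 fold change of the other p53 targets was -0.40 in Selp_high over Selp_low paHSCs, 0.09 in Selp_high paHSCs over yHSCs and 0.26 in Selp_low paHSCs over yHSCs. Between the paHSC fractions 10 of these 25 estimates were positive and 15 negative, where 44.8% of all genes tested had a positive estimate. The 10 p53 target and stress genes among the 37 had a median of 0.42 there, with 6 positive and 4 negative. The difference between these medians was not tested. All 6 other mismatch repair genes had negative estimates in Selp_low paHSCs over yHSCs (median -0.42), none of them called, the largest being *Mlh3* at -0.78 (adjusted p = 0.502 by edgeR). Of all genes tested in that comparison, 55.1% had a positive estimate.

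Libraries without overlap and a fold change of at least 2 were found for 2 of the 129 other genes tested in Selp_high over Selp_low paHSCs, or 1.55%, for 6 in Selp_high paHSCs over yHSCs and for 6 in Selp_low paHSCs over yHSCs, or 4.65% each, beside the 11.4%, 7.73% and 7.73% of all genes given above. The 2 between the fractions were *Btg2* and *Neil2*, a glycosylase gene, which had a log2 fold change of 1.46 (adjusted p = 0.423 by edgeR). Of those over yHSCs, *Fas*, *Eda2r* and *Polm* were shared by both fractions, and *Fas* and *Polm*, with the lowest DESeq2 adjusted p of these 3, are given here, chosen after their values were seen. *Fas*, the death receptor gene, was at 4.65 to 6.36 CPM in yHSCs, 11.4 to 28.3 CPM in Selp_low paHSCs and 10.9 to 14.98 CPM in Selp_high paHSCs. Its log2 fold change was 1.75 in Selp_low paHSCs (adjusted p = 0.332 by edgeR and 0.0594 by DESeq2) and 1.12 in Selp_high paHSCs (adjusted p = 0.403 by edgeR and 0.113 by DESeq2). Every paHSC library of *Fas* was above every yHSC library. *Polm*, a polymerase gene of end joining, was at 3.59 to 5.36 CPM in yHSCs, 9.86 to 18.1 CPM in Selp_low paHSCs and 7.98 to 15.2 CPM in Selp_high paHSCs, and its log2 fold change was 1.53 (adjusted p = 0.332 by edgeR and 0.0540 by DESeq2) and 1.25 (adjusted p = 0.403 by edgeR and 0.0700 by DESeq2) in the same order. Neither tool called them.

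*Btg2*, an antiproliferative p53 target, was at 528, 476 and 901 CPM in yHSCs, 711, 383 and 486 CPM in Selp_low paHSCs and 286, 85.0 and 190.0 CPM in Selp_high paHSCs. Every Selp_high library was below the other 6 libraries. On the log2 scale, the fold change in Selp_high paHSCs over yHSCs was -1.78 (SE 0.46, adjusted p = 0.297 by edgeR and 0.0130 by DESeq2), and over Selp_low paHSCs it was -1.50 (SE 0.49, adjusted p = 0.338 by edgeR and 0.165 by DESeq2). *Wee1*, the kinase that delays entry into mitosis, was at 75.5, 82.0 and 127 CPM in yHSCs, 37.7, 37.4 and 63.7 CPM in Selp_low paHSCs and 46.7, 49.5 and 48.0 CPM in Selp_high paHSCs. Both paHSC fractions lay below yHSCs without overlap. DESeq2 called it in Selp_high paHSCs at a log2 fold change of -1.002 (adjusted p = 0.0185), while edgeR gave -0.99 (SE 0.25, adjusted p = 0.271). In Selp_low paHSCs the edgeR estimate was also -0.99 (SE 0.31, adjusted p = 0.339), with an adjusted p of 0.236 by DESeq2.

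*Cdkn1a*, the p21 gene and best-known p53 target for arrest, was at 58.3, 121 and 88.4 CPM in yHSCs, 55.5, 20.6 and 118 CPM in Selp_low paHSCs and 25.9, 82.3 and 49.9 CPM in Selp_high paHSCs. Its groups overlapped in each comparison, and its lowest edgeR adjusted p was 0.846. *Bax*, the p53 target that permeabilises mitochondria, was at 42.7, 40.9 and 41.9 CPM in yHSCs, 87.5, 94.5 and 60.4 CPM in Selp_low paHSCs and 66.4, 57.3 and 54.4 CPM in Selp_high paHSCs. All paHSC libraries of *Bax* were above all yHSC libraries, at a log2 fold change of 1.00 in Selp_low paHSCs (SE 0.26, adjusted p = 0.332 by edgeR and 0.220 by DESeq2) and 0.47 in Selp_high paHSCs (SE 0.23, adjusted p = 0.745 by edgeR). *H2ax*, the histone variant phosphorylated beside breaks, ranged from 59.7 to 196 CPM, and was highest in Selp_low replicate 3 and lowest in Selp_high replicate 1.

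**Figure D5:**
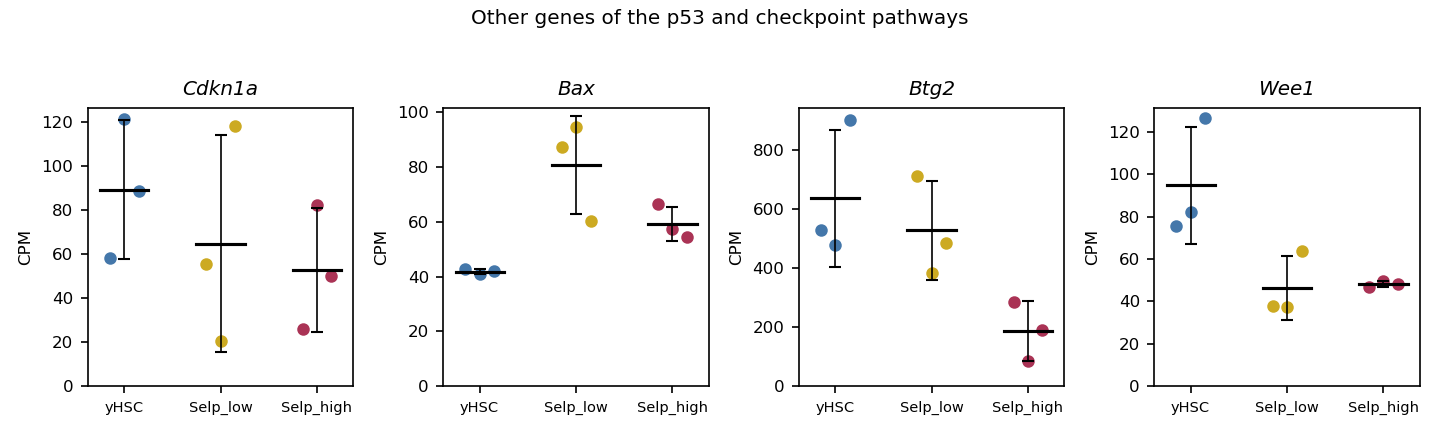
Level in CPM (y axis, starting at 0 or just below it) of 4 other genes of the pathway, *Cdkn1a*, *Bax*, *Btg2* and *Wee1*, in each library (points) with group mean (wide line) and standard deviation (whiskers, n = 3). *Btg2* is lowest in the Selp_high libraries, *Wee1* and *Bax* separate yHSCs from both paHSC fractions, and *Cdkn1a* overlaps.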

How the data were processed

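Sorted HSCs were profiled by RNA-seq in 9 libraries, 3 per group. Per the submitters' processing notes and the study's methods, reads were trimmed with fastp, aligned to mm39 with HISAT2 2.2.1 and counted with featureCounts 2.0.6, and the authors deposited raw read counts per gene for 56748 genes, with a gene length. Neither the annotation release nor strand and multi-mapping settings were found in the sources used here, so counts of overlapping or near-identical genes are uncertain. Amplification from little RNA can add noise between libraries. The replicates are taken as separate samples, as labelled.

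The counts were analysed in R 4.3.3 with edgeR 4.0.16 (TMM, filterByExpr, quasi-likelihood test with the legacy setting), pairwise on the 6 libraries of the 2 groups, with Benjamini-Hochberg adjustment over all genes tested. Alternatives were DESeq2 1.42.0, voom with quality weights (limma 3.58.1), RLE factors, no filter, a mean of at least 10 counts, 1 fit of all 9 libraries, edgeR's newer setting, the replicate number as a block, no fold-change minimum and each library left out. DESeq2 with the block and DESeq2 with a library left out were added after the data were seen. The steps were tested on simulated counts with 200 genes changed by a set amount, far larger than the 2-fold minimum for a call. These genes were drawn from those with higher counts, and recovery of changes near 2-fold was not tested. At a dispersion (spread between libraries) of 0.05 each tool recovered all 200. At 0.4 edgeR recovered 91, 81 and 92 in the 3 comparisons, in the order used above, with 2, 5 and 2 false calls. DESeq2 recovered 135, 138 and 147 there, with 33, 47 and 56 false calls. How close either setting is to the real libraries was not tested. A count of 0 was taken to allow 3 counts (0.0695 to 0.198 CPM), a limit that covers counting error only. Figures were drawn with matplotlib 3.10.9.

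All 37 genes are named with their ranges. Values per library are given for *Trp53*, *Mdm2* and *Ccng1*, for genes called by edgeR or DESeq2, and for genes with no overlap and at least 2-fold. *Sesn1*, *Phlda3*, *Brca1* and *Fancd2* were added after their values were seen. Of other pathway genes, the rule names *Cdkn1a*, *Bax*, *H2ax* and genes called by edgeR or DESeq2, not those only without overlap. 1 further gene that the rule names is not reported here. *Mlh3*, *Neil2*, *Fas*, *Polm* and *Eda2r* were added after their values were seen. The genes and lists were chosen with earlier results of these data known. Equal replicate numbers correlated at 0.350 to 0.405 between the paHSC fractions and at -0.197 to 0.103 with yHSCs. That the numbers mark pairs rests on these correlations, not on the labels.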

Additional observations from a re-analysis of the deposited data

How the results depend on the processing

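With 3 libraries per group and the spread between them, calls depended on the tool and on single libraries. The count of the 37 genes called stayed at 0 in edgeR fits with RLE factors, a mean of at least 10 counts, 1 fit of all 9 libraries, the replicate block, the newer setting, no fold-change minimum and each library left out. It was 1 (*Gadd45g*) in both comparisons with yHSCs by DESeq2, by voom, with no filter and by DESeq2 with the replicate block, and 4 between the paHSC fractions by DESeq2 with the replicate block. With 1 library left out, by edgeR or DESeq2, it ranged from 0 to 1 between the fractions. In Selp_high and in Selp_low paHSCs over yHSCs it ranged from 0 to 3. The DESeq2 fits with 3 called 669 of 23137 genes in Selp_high and 2510 of 27862 in Selp_low paHSCs. With all libraries DESeq2 called 596 of 21436 and 517 of 17508. The fits with 1 between the fractions called 1255 of 23704 and 374 of 25045 genes, against 589 of 25807. The replicate block in edgeR changed no call of the 37 genes, while it moved the calls over all genes from 0 to 9 between the fractions and from 33 to 0 in Selp_high paHSCs over yHSCs. As yHSC and paHSC mice differed in age, the number cannot mark the same mouse in comparisons with yHSCs. Libraries of equal number correlated there at only -0.197 to 0.103. Without a filter edgeR called 193, 472 and 365 genes in Selp_high over Selp_low paHSCs, Selp_high paHSCs over yHSCs and Selp_low paHSCs over yHSCs, where DESeq2 called 589, 596 and 517.

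Of 630 values of 10 named genes under alternatives, 565 kept direction and side of the threshold, 28 passed it and 37 changed sign, all of small estimates. With 1 library left out, *Mdm2* ranged from -0.11 to 0.29 and *Xpc* from -0.16 to 0.82 between the fractions, *Trp53* from -0.18 to 0.15 and *Sesn2* from -0.39 to 0.30 in Selp_high paHSCs over yHSCs, and *Ccng1* from -0.21 to 0.18 and *Phlda3* from -0.32 to 0.75 in Selp_low paHSCs over yHSCs. In Selp_high paHSCs over yHSCs, *Sesn2* was 0.0555 with the replicate block and 0.0422 by DESeq2 with it, and *Trp53* was -0.16 by voom. In Selp_low paHSCs over yHSCs, *Ccng1* was -0.0153 by DESeq2, -0.0862 with no filter, -0.0332 in 1 fit of all 9 libraries, -0.105 by voom and -0.0304 by DESeq2 with the replicate block, and *Phlda3* was -0.0727 by voom. The cause of these changes was not tested.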
